A study of Mus musculus with 23 samples.

Results

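The comparison described here is between crypt cells of the small intestine of CD1 mice on postnatal day 10 (P10) and on postnatal day 6 (P6), in 6 of the 23 libraries of the series: 3 labelled P10 crypt and 3 labelled P6 crypt. The members were taken by their labels alone. Epithelium of the medial small intestine was released with EDTA and stained for Epcam, a surface protein of epithelial cells, and CD44, a surface glycoprotein enriched in crypts. Crypt cells are the sorted cells positive for both, and villus cells are positive for Epcam and negative for CD44. The labels name no mutation, transgene or treatment in either group, and age is the only labelled difference. RNA was sequenced as poly(A) libraries made with a stranded kit. Nothing in the labels tells if a replicate is 1 animal or a pool, and the spread behind each p-value may thus be technical. Other libraries of the series (crypt at P0 and P3, villus at all 4 ages) enter the shared estimate of spread. Crypt libraries of P0 and P3 and villus libraries of P6 and P10 are also used where stated.

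In the mouse, crypts form from a flat intervillus epithelium during the first weeks after birth. The crypt base comes to hold Lgr5-positive stem cells, kept by Wnt and Notch signals, between Paneth cells, which store lysozyme and alpha-defensins in granules and present Wnt and Notch ligands to the stem cells. Goblet cells secrete mucin, enteroendocrine cells secrete peptide hormones, tuft cells sense luminal contents, and absorptive enterocytes take up nutrients on the villus. Paneth cells are known to be the last of these lineages to mature.

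The sort and the depth were checked first. The libraries held 28024868 to 37055554 counts in genes at P6 and 23545159 to 29922984 at P10. Epcam was at 2031, 2032 and 1878 CPM (counts scaled to library size and by the trimmed mean of M values) in the P6 libraries and at 1739, 1747 and 1713 CPM in the P10 libraries. Its log2 fold change P10 over P6 was -0.19 ± 0.14, adjusted p = 0.23, GC-adjusted -1.09 ± 0.16, adjusted p = 1.4e-05, and 0.37 in the plain fit with library size alone as scaling (adjusted p = 0.0264). Cd44 was at 151, 98.7 and 109 CPM at P6 and 63.1, 72.6 and 79.4 CPM at P10, against villus means of 39.2 and 23.7 CPM, so that the crypt libraries were the higher at both ages (log2 fold change P10 over P6 in crypt -0.74 ± 0.35, adjusted p = 0.064, GC-adjusted 0.35 ± 0.30, adjusted p = 0.38). The P6 libraries counted transcripts of lower GC content than the P10 libraries: the count-weighted mean GC content was 44.3% to 44.6% at P6, 49.0% to 49.3% at P10 and 49.0% to 49.7% in P0 crypt. The log2 fold change between P10 and P6 rose with a gene's GC content, with a Spearman correlation over genes of 0.819, and genes are not independent replicates. The median log2 fold change was -1.45 in the lowest of 4 equal groups of genes by GC content and 2.48 in the highest. Mitochondrially encoded genes held 8.13% to 12.4% of counts at P6 and 2.98% to 4.09% at P10. The trend runs with the groups, so it and age cannot be told apart.

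For that reason 2 fits were run for every gene. The plain fit compares the scaled counts with edgeR's quasi-likelihood test. The GC-adjusted fit adds an offset for each library that removes its smooth dependence on GC content and transcript length, which brought the correlation with GC content to 0.0443. A gene is said to have risen or fallen here where both fits called it in the same direction at a Benjamini-Hochberg adjusted p under 0.05 over the 16535 genes tested. The plain fit called 37.2% of genes higher at P10 and 32.1% lower, and the GC-adjusted fit called 20.7% higher and 20.5% lower. Both fits called 2541 genes higher (15.4%) and 1887 lower (11.4%), and these shares are the background for each list that follows. The shares depend on GC content. In the lowest of the 4 GC groups 69 of 4088 genes rose, and in the highest 47 of 4079 fell. The median GC content of the lists ran from 37.12% for mitochondrially encoded genes to 54.7% for Notch genes, so 1 background does not suit every list equally. The 3 P10 libraries all lay above the 3 P6 libraries for 40.6% of genes tested and all below for 35.9%. Over all genes the median log2 fold change was 0.12 in the plain fit and 0.01 in the GC-adjusted fit. Log2 fold changes are P10 over P6, with the standard error after ±, and the GC-adjusted value follows the plain one. The value after ± beside a mean level is the SD over 3 libraries. Values beside P0 crypt compare the same P10 libraries with P0 libraries of like GC content. They share the P10 libraries with the main comparison and are not independent of it. That fit called 1194 genes (7.22%) higher at P10 than at P0 and 1635 (9.89%) lower. Without 1 library the counts ranged from 615 to 1049 and from 830 to 1512, and were lowest without P0 replicate 1 or a P10 library.

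**Figure D1:**
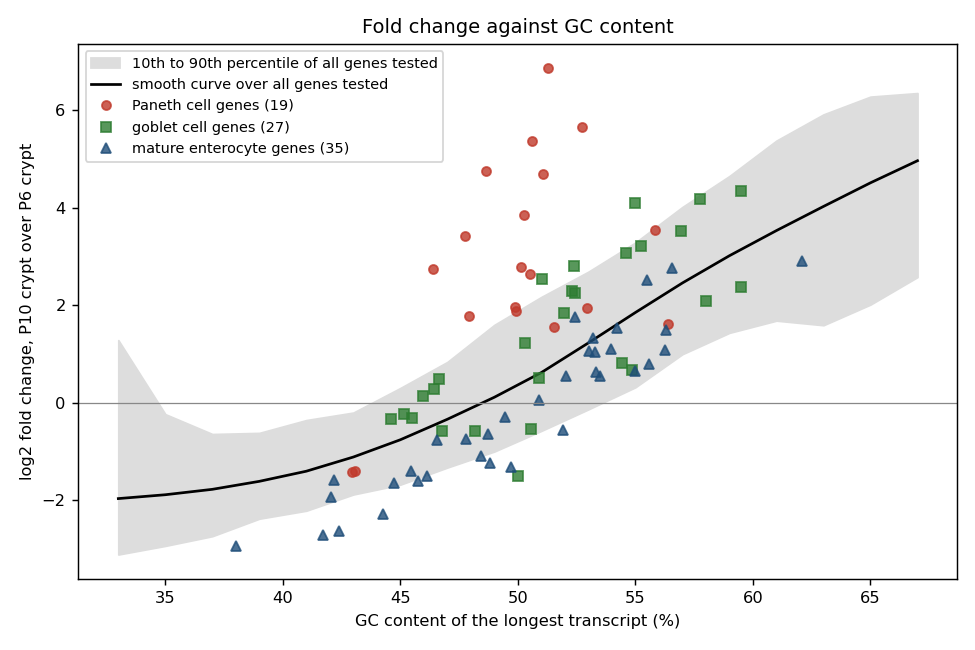
Log2 fold change of P10 crypt over P6 crypt (vertical axis) against the GC content of the longest transcript in percent (horizontal axis). The black line is a smooth curve over all genes tested, the grey band their 10th to 90th percentile, and the points are the Paneth cell (19), goblet cell (27) and mature enterocyte (35) genes tested; 16 Paneth and 18 goblet genes lie above the curve, and 4 mature enterocyte genes do.

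Among the 34 gene lists Paneth cell genes had the largest share of risen members. The lists and their members were chosen with earlier results of these data known, so this rank is a description and not a test. Of 25 genes listed, 19 passed the filter on low counts, 14 rose (background 15.4%) and none fell. The median log2 fold change over the 19 was 2.73 in the plain fit (2.64 with the gene at 0 in all P6 libraries set to its lower bound) and 2.08 with the GC adjustment. Of the 19, 16 lay above the GC curve, against 42.95% of all genes. Against P0 crypt 14 Paneth genes were higher at P10 and 0 lower. Genes that passed the filter only through the P10 libraries had to differ, so these counts describe the tested genes and not all 25. Since the tissue was measured in bulk, fewer cells of a type and less RNA per cell cannot be told apart here or in any other list.

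The upstream sequences of 4 of these genes are shown as examples. They come from RefSeq on the build GRCm38.p6, hold the 250 bases before the transcription start, and are written 5′ to 3′ on the gene's strand. The counts were made on another build, mm9. Of the 25 listed genes 14 were found in the RefSeq table. Defa24, the most abundant defensin symbol, was not among them. Capitals mark matches to CTTTGA, the core of the TCF/LEF motif through which Wnt signals act (TCAAAG on the other strand), and to TATAAA, the TATA box, both searched on both strands. The motifs do not overlap each other.
Defa22 (chr8:21162027-21162276, + strand): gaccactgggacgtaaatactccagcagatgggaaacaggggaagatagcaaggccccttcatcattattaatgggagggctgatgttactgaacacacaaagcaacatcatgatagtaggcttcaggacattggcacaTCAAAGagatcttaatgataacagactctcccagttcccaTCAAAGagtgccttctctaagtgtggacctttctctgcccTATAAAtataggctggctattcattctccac
Mmp7 (chr9:7691840-7692089, + strand): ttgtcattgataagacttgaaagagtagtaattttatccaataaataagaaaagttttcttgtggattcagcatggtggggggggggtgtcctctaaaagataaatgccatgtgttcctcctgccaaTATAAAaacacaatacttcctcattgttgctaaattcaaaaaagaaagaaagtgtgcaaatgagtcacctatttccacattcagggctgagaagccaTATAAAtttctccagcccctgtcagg
Lyz1 (chr10:117292869-117293118, - strand): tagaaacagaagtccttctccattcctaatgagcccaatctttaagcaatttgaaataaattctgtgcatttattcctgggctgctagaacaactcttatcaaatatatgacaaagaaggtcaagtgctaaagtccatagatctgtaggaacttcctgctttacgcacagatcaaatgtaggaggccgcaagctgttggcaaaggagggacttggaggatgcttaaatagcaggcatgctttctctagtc
Ang4 (chr14:51773591-51773840, - strand): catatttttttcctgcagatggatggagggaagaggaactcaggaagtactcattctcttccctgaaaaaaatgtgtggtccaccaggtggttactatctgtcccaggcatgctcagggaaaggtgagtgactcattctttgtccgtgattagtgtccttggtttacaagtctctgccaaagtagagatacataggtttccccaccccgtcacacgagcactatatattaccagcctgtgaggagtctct
The Defa22 window holds 2 matches to the TCF/LEF core and 1 to the TATA box, and the Mmp7 window holds 2 to the TATA box. The Lyz1 and Ang4 windows hold neither. Over the table, 13.83% of 32851 windows of this length hold the TCF/LEF core and 12.37% the TATA box. The 14 Paneth genes have 16 windows, of which 6 hold the core (a second annotated window of Mmp7, and those of Pnliprp2, Defa20, Defa21, Defa22 and Defa23) and 5 the TATA box (the first window of Mmp7 and the same 4 defensins). The 4 defensins are copies of one family whose matches lie within 2 bases of the same positions, so they are not separate cases, and Defa20, Defa21 and Defa23 did not pass the filter on low counts. A match describes the letters only.

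Lyz1 encodes the lysozyme of Paneth cell granules, which cuts bacterial cell walls. It was at 30.0, 28.3 and 8.52 CPM in the P6 libraries and at 251, 258 and 208 CPM in the P10 libraries. The groups did not overlap, and P6 replicate 3 was the lowest. The rise was 10.7-fold in the plain fit (log2 3.42 ± 0.44, adjusted p = 8.9e-07, GC-adjusted 3.56 ± 0.45, adjusted p = 6.2e-06). Its transcript has a GC content below that of the median gene, and the curve at that GC content stood at -0.18, so that the rise ran against the trend. In P0 crypt the mean was 5.54 ± 2.69 CPM (SD, n = 3), and the P10 libraries stood above P0 by a log2 fold change of 5.43 ± 0.49 (adjusted p = 8.9e-07).

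Alpha-defensins are the pore-forming peptides of Paneth cell granules. Their genes are near-identical copies in one cluster, so reads may be split between symbols and single symbols are uncertain. The 32 defensin symbols in the files were therefore also summed. The sum, on the same scale as the single genes, was 183.2, 196.1 and 90.9 CPM at P6, and 729.7, 776 and 712 CPM at P10, with the P10 libraries all far above. In P0 crypt it was 63.43, 85.68 and 92.36 CPM and in P3 crypt 214.8, 270.1 and 271.7 CPM. On this scale P6 replicates 1 and 2 lay between P0 and P3, and P6 replicate 3 lay within the range of P0. The sums are not adjusted for GC content, whose count-weighted mean was 49.3% in P0, 46.2% in P3 and 44.5% in P6 crypt. The part of GC content in this order of ages was not tested. Defa24 held 89.9% to 93.51% of the sum at P6 and 73.36% to 79.01% at P10, and symbols with at least 1 count numbered 6 to 8 per library at P6 and 12 at P10.

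Single defensin symbols spread widely in the size of their rise. Defa24 was at 169.7, 176 and 85 CPM at P6 and 535, 590.1 and 563 CPM at P10 (log2 1.97 ± 0.33, adjusted p = 2.5e-05, GC-adjusted 1.32 ± 0.28, adjusted p = 9.5e-04). Gm15284, a predicted gene of the Paneth list, was at 5.49, 7.84 and 1.81 CPM at P6 and 76, 80.2 and 60.4 CPM at P10 (log2 3.84 ± 0.56, adjusted p = 4.9e-06, GC-adjusted 3.10 ± 0.46, adjusted p = 3.3e-05). Neither symbol overlapped between ages, and Defa24, the more abundant, had the smaller of these rises. Defa17, Defa22 and Defa26 rose by log2 fold changes of 2.78 ± 0.47, 4.69 ± 0.55 and 4.76 ± 0.51 in the plain fit and 2.08 ± 0.37, 3.74 ± 0.50 and 4.32 ± 0.45 with the adjustment. Defa-ps7, an annotated pseudogene, had 3 counts over the P6 libraries and 555 over the P10 libraries, a ratio of 147 with a 95% counting interval of 49.97 to 714. Gm14851 had no count at P6 and 22 at P10, at least a log2 difference of 2.54 against a floor of 3 counts over the P6 group, and its call was lost without any 1 of the P6 libraries or without P10 replicate 2 (adjusted p = 0.053 to 0.079). Neither this bound nor the Defa-ps7 ratio is adjusted for GC content.

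Other Paneth cell products rose as well. Ang4, an antimicrobial ribonuclease, was at 3.8, 2.0 and 4.82 CPM at P6 and 37.1, 20.7 and 13 CPM at P10, with the groups apart and P10 replicate 1 the highest (log2 2.73 ± 0.65, adjusted p = 9.4e-04, GC-adjusted 2.91 ± 0.65, adjusted p = 0.0015). Pnliprp2, a lipase, was at 1.81, 1.49 and 2.0 CPM at P6 and 8.42, 13.6 and 11.1 CPM at P10 (log2 2.64 ± 0.34, adjusted p = 9.2e-07, GC-adjusted 2.28 ± 0.33, adjusted p = 1.3e-05). Mmp7, the protease that activates pro-defensins in mice, was at 10.8, 7.67 and 2.08 CPM at P6 and 22.8, 25 and 22.4 CPM at P10 (log2 1.77 ± 0.59, adjusted p = 0.012, GC-adjusted 1.79 ± 0.63, adjusted p = 0.029). All 3 had P10 libraries above every P6 library, as had 40.6% of all genes tested, but the Mmp7 call was lost without P6 replicate 2, P6 replicate 3 or P10 replicate 2 (adjusted p = 0.061 to 0.11). Pla2g2a, a secreted phospholipase that kills bacteria, was at 0.561, 0.256 and 0.0386 CPM at P6 and at 95.4, 5.23 and 4.9 CPM at P10. P10 replicate 1 stood far above the other P10 libraries: the log2 fold change was 6.86 ± 1.54 with it and 4.07 without it (adjusted p = 8.3e-04 and 0.0058), and 5.93 ± 1.52 with it and the GC adjustment. Its relative Pla2g2f rose by 3.54 ± 0.52, or 1.66 ± 0.45 with the adjustment.

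**Figure D2:**
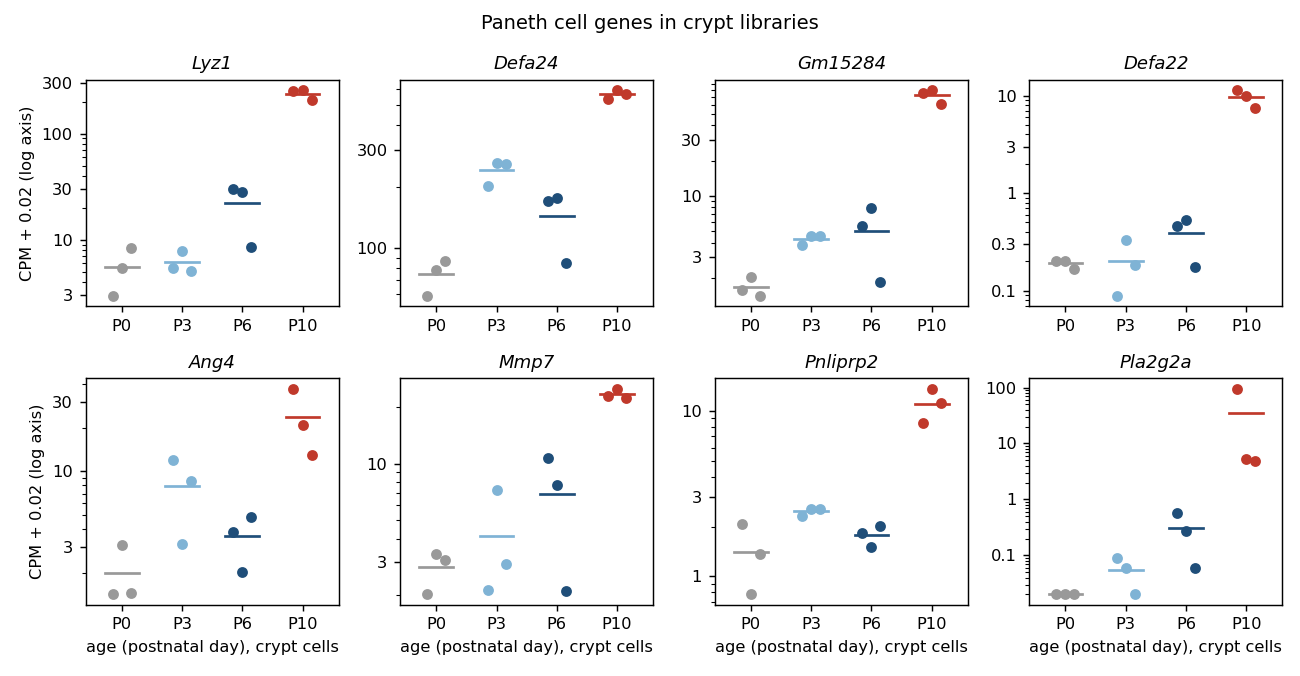
CPM (plus 0.02, log axis) of 8 Paneth cell genes in crypt libraries at P0, P3, P6 and P10. Each point is 1 of 3 libraries and the bar their mean; in every panel the 3 P10 libraries lie above the 3 P6 libraries, as for 40.6% of all genes tested, and Pla2g2a shows 1 P10 library far above the other P10 libraries.

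The 5 tested Paneth genes that did not pass were Itln1, Mptx2, Cd24a, Nupr1 and Fgfr3. Itln1, an intestinal lectin, was at 129.6, 144 and 60.3 CPM at P6 and 277, 387 and 317 CPM at P10 (log2 1.55 ± 0.33, adjusted p = 3.1e-04, GC-adjusted 0.79 ± 0.33, adjusted p = 0.065). Mptx2, a pentraxin of Paneth cells, went the other way in the plain fit, at 184, 150.2 and 44.7 CPM at P6 and 33.5, 49.1 and 60.0 CPM at P10 (log2 -1.41 ± 0.47, adjusted p = 0.012, GC-adjusted -0.50 ± 0.47, adjusted p = 0.43). Cd24a, a surface marker used to sort Paneth cells that other crypt cells also carry, was at 436, 316 and 431 CPM at P6 and 148, 147 and 146 CPM at P10 (log2 -1.43 ± 0.20, adjusted p = 3.3e-06, GC-adjusted -0.20 ± 0.17, adjusted p = 0.37). Both Mptx2 and Cd24a have low-GC transcripts. Nupr1, a stress-response protein, missed the threshold with the adjustment (log2 1.88 ± 0.71, adjusted p = 0.024, GC-adjusted 1.79 ± 0.75, adjusted p = 0.064). Fgfr3, a growth factor receptor, changed sign between the fits (log2 1.62 ± 0.25, adjusted p = 6.4e-06, GC-adjusted -0.47 ± 0.22, adjusted p = 0.088).

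Paneth transcripts were also counted in the CD44-negative cells. Summed over the list they reached 665 to 1004 CPM in P6 crypt and 1566 to 1759 CPM in P10 crypt, and 1927 to 2647 and 2681 to 3763 CPM in villus at P6 and P10. The sum includes Cd24a, Itln1 and Mptx2, which did not pass in both fits. These genes held a large part of it in P6 crypt, and Cd24a is also carried by other crypt cells. The crypt sums therefore do not measure Paneth cells alone. Lyz1 had villus means of 40.2 CPM at P6 and 275 CPM at P10. The Paneth list also rose in villus, with a median plain log2 fold change of 1.825 there against 2.73 in crypt. The crypt change minus the villus change was above 0 for 19 of 19 Paneth genes, with a median of 0.76. Over all genes it was above 0 for 52.17%, with a median of 0.02. The 19 include near-identical defensin symbols, which are not separate cases. The difference of the 2 changes also fell with GC content, with a Spearman correlation over genes of -0.354. No gene of any kind passed the test of that difference (edgeR, 0% higher and 0% lower). Unadjusted p-values under 0.05 numbered 241 of 16535 genes, or 272 with the GC adjustment, where 5% of the genes would be 826.75. The absence of calls therefore does not show that the changes in crypt and villus were alike. P6 villus has 2 libraries.

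Goblet cell genes formed the next group. Of 28 listed and 27 tested, 12 rose and none fell, with a median log2 fold change of 1.21 in the plain fit and 0.73 with the GC adjustment, and 18 of 27 lay above the GC curve. Muc2, the gel-forming mucin of the intestine, was at 22.1, 30.0 and 15.8 CPM at P6 and 94.3, 121 and 115 CPM at P10 (log2 2.28 ± 0.28, adjusted p = 4.8e-07, GC-adjusted 1.52 ± 0.25, adjusted p = 6.7e-05). Its P10 libraries were above every P6 library and also above P0 crypt, where the mean was 35.5 ± 6.45 CPM (log2 1.63 ± 0.28, adjusted p = 5.7e-04). Tff3, the trefoil peptide secreted with the mucin, was at 9.01, 13.3 and 11.1 CPM at P6 and 212, 191 and 171 CPM at P10 (log2 4.10 ± 0.44, adjusted p = 7.4e-08, GC-adjusted 1.99 ± 0.24, adjusted p = 1.8e-06). Unlike Muc2 it did not pass against P0 crypt, where the mean was 153 ± 47.7 CPM (log2 0.32 ± 0.38, adjusted p = 0.61).

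Fcgbp and Spdef likewise did not pass against P0 crypt. Fcgbp, which binds the mucus gel, was at 36.2, 35.7 and 24.3 CPM at P6 and 395, 794 and 552 CPM at P10 (log2 4.18 ± 0.31, adjusted p = 1.2e-09, GC-adjusted 1.75 ± 0.24, adjusted p = 6.4e-06), and at a mean of 434 ± 77.4 CPM in P0 crypt. Spdef, the transcription factor of goblet cell maturation, was at 1.62, 1.62 and 1.31 CPM at P6 and 28.4, 30.3 and 33.5 CPM at P10 (log2 4.33 ± 0.40, adjusted p = 1.0e-08, GC-adjusted 1.29 ± 0.33, adjusted p = 0.0034), against 16.1 ± 7.71 CPM in P0 crypt (log2 0.94 ± 0.34, adjusted p = 0.06). Capn9, a calpain of the gut, rose by 3.07 ± 0.39, or 1.59 ± 0.38 with the adjustment. Zg16, a lectin of the mucus, rose by 2.53 ± 0.62, or 1.76 ± 0.58, a call lost without P6 replicate 1, P6 replicate 3 or P10 replicate 2 (adjusted p = 0.079 to 0.086). The most abundant members outside both calls were Agr2, Clca1 and Retnlb. Agr2, a disulfide isomerase needed for mucin folding, was at 125, 134 and 92.5 CPM at P6 and 171, 161 and 158 CPM at P10 (log2 0.48 ± 0.31, adjusted p = 0.18, GC-adjusted 0.73 ± 0.29, adjusted p = 0.049). Clca1, a secreted protease of mucus, was at 92.4, 88.8 and 40.6 CPM at P6 and 107, 91.6 and 70.8 CPM at P10, with overlapping groups (log2 0.28 ± 0.26, adjusted p = 0.34, GC-adjusted 0.87 ± 0.28, adjusted p = 0.016). Retnlb, a resistin-like peptide, spread within each age, at 53.6, 173 and 4.28 CPM at P6 and 26.7, 70.8 and 155 CPM at P10 (log2 0.13 ± 1.13, adjusted p = 0.92, GC-adjusted 0.52 ± 1.16, adjusted p = 0.75). Against P0 crypt 7 goblet genes were higher at P10 and 1 lower.

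Enteroendocrine hormones varied between the P10 libraries, with replicate 1 the highest and replicate 2 the lowest for Gip, Pyy and Sct. Of 16 listed and 14 tested, 3 rose and none fell (median log2 fold change 0.53, GC-adjusted 1.35). Gip, the incretin of K cells, was at 32.9, 51.2 and 56.9 CPM at P6 and 1328, 343 and 724 CPM at P10 (log2 4.09 ± 0.66, adjusted p = 1.8e-05, GC-adjusted 2.56 ± 0.51, adjusted p = 6.0e-04), and at a mean of 519.9 ± 398 CPM in P0 crypt. Pyy, an appetite-suppressing peptide, was at 0.374, 1.15 and 1.58 CPM at P6 and 44.3, 9.15 and 24.8 CPM at P10 (log2 4.68 ± 0.77, adjusted p = 2.2e-05, GC-adjusted 1.85 ± 0.64, adjusted p = 0.027). Sct, secretin, was at 0.436, 0.852 and 0.733 CPM at P6 and 33.3, 13.7 and 21.3 CPM at P10 (log2 5.10 ± 0.73, adjusted p = 4.1e-06, GC-adjusted 1.65 ± 0.61, adjusted p = 0.037). The Pyy call was lost without P6 replicate 1, P6 replicate 2 or P10 replicate 1 (adjusted p = 0.062 to 0.11), and the Sct call without any 1 library other than P10 replicate 2 (0.061 to 0.11), which left 1 hormone gene in 3 of the 6 cases. Gcg, the precursor of glucagon-like peptides, had values of -0.04 ± 0.36 and, GC-adjusted, 0.66 ± 0.34. Nts, neurotensin, had -0.13 ± 0.57 and 1.44 ± 0.61, and Sst, somatostatin, 3.30 ± 0.65 and 0.95 ± 0.54.

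Enteroendocrine granule proteins and transcription factors gave 6 risen of 26 tested and none fallen (median 1.08, GC-adjusted 0.56). The count was 3 without P10 replicate 1. Pcsk1n, an inhibitor of prohormone convertase, had no count in the P6 libraries and 431 at P10, at least a log2 difference of 6.83 against the floor of 3 counts over the P6 group. That bound is not adjusted for GC content. Pax4, a transcription factor of the lineage, was at 0.156, 0.17 and 0.154 CPM at P6 and 1.89, 1.43 and 1.75 CPM at P10 (log2 3.37 ± 0.47, adjusted p = 2.2e-06, GC-adjusted 1.69 ± 0.45, adjusted p = 0.0049). Chga, chromogranin A of hormone granules, was at 2.65, 5.24 and 3.66 CPM at P6 and 81.7, 40.7 and 54 CPM at P10 (log2 3.94 ± 0.51, adjusted p = 1.1e-06, GC-adjusted 1.21 ± 0.47, adjusted p = 0.047), a call lost without P6 replicate 1, P6 replicate 3, P10 replicate 1 or P10 replicate 3 (adjusted p = 0.071 to 0.17). Neurog3, the transcription factor that starts the lineage, was at 0.904, 1.11 and 1.2 CPM at P6 and 8.2, 8.71 and 7.25 CPM at P10 (log2 2.91 ± 0.44, adjusted p = 6.8e-06, GC-adjusted 0.43 ± 0.35, adjusted p = 0.35), and at 6.77 ± 2.85 CPM in P0 crypt. Its groups were apart, but it did not pass with the adjustment. Chgb, Cpe and Rfx6, the most abundant members outside both calls, had GC-adjusted values of 0.02 ± 0.43, -0.15 ± 0.47 and 0.56 ± 0.25.

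Among tuft cell genes, 13 of 24 listed passed the filter, none rose and 1 fell, Kctd12, a protein with a potassium channel tetramerization domain (log2 -1.88 ± 0.38, adjusted p = 2.0e-04, GC-adjusted -0.90 ± 0.34, adjusted p = 0.04), whose call was lost without P6 replicate 1, P6 replicate 3, P10 replicate 1 or P10 replicate 2 (adjusted p = 0.063 to 0.16). The list's median was 1.35 in the plain fit and 0.38 with the adjustment. Pou2f3, the master regulator of tuft cells, was at 0.842, 0.596 and 0.655 CPM at P6 and 2.14, 1.75 and 1.49 CPM at P10 (log2 1.35 ± 0.42, adjusted p = 0.0076, GC-adjusted 0.84 ± 0.42, adjusted p = 0.11). Against P0 crypt, where its mean was 0.25 ± 0.092 CPM, it was higher by 2.82 ± 0.46 (adjusted p = 3.8e-04). Dclk1, the usual tuft cell marker, was at 0.0935, 0.213 and 0.0771 CPM at P6 and 0.0834, 0.0822 and 0.132 CPM at P10 (log2 -0.33 ± 0.65, adjusted p = 0.66, GC-adjusted 0.38 ± 0.63, adjusted p = 0.66).

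**Figure D3:**
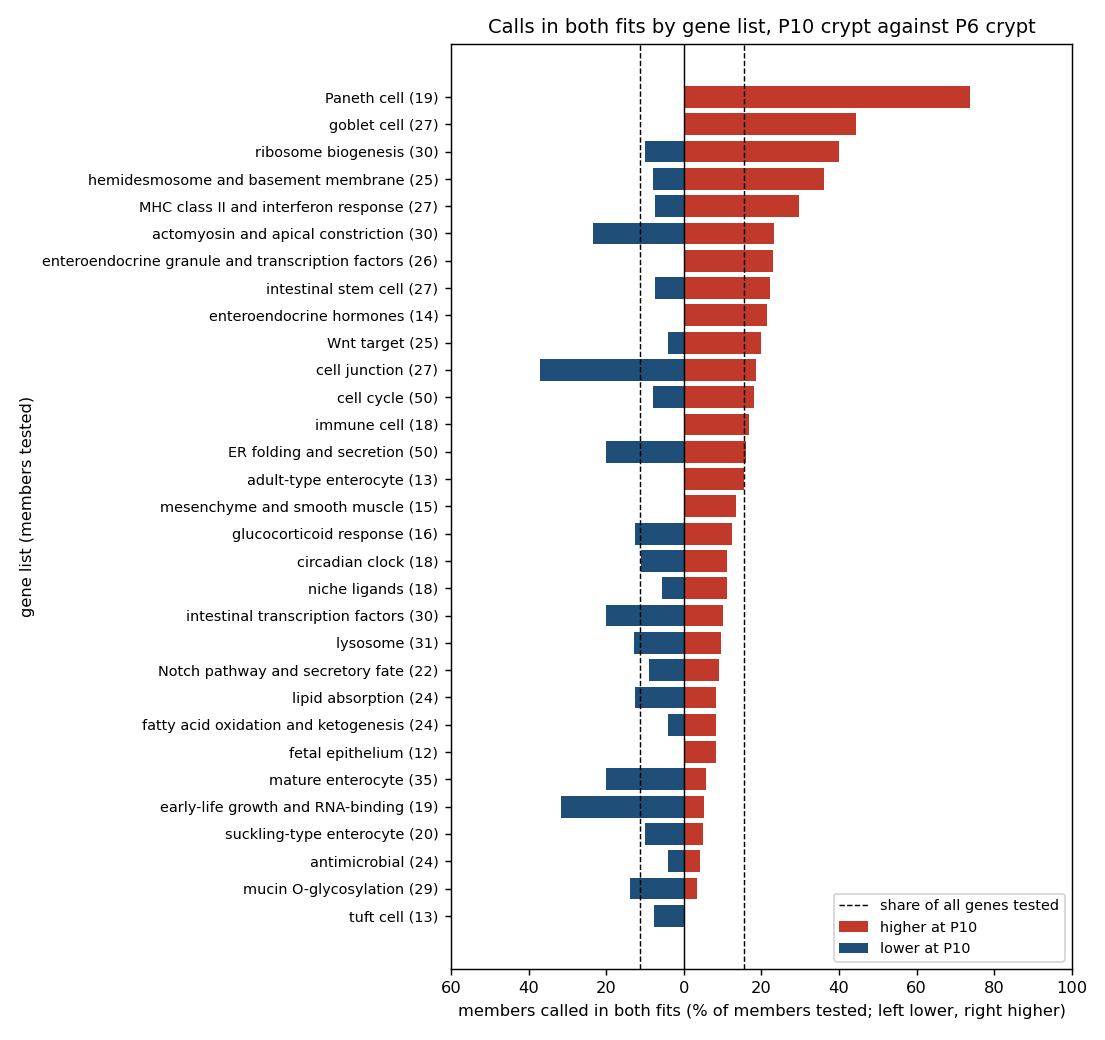
Share of each gene list's tested members that rose (right, red) or fell (left, blue) in both fits, in percent of members tested, for the lists with at least 10 tested; dashed lines mark the shares over all genes, 15.4% higher and 11.4% lower. The Paneth cell list has the longest bar to the right, with 14 of 19, and bars to the left are longest for cell junction and early-life growth genes.

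Notch signalling sets the balance between secretory and absorptive fate: cells that present the ligand become secretory and express Atoh1, and their neighbours express Hes1. Of 22 genes tested 2 rose and 2 fell (median 0.73, GC-adjusted -0.33). Dll4, a ligand, was at 1.09, 0.852 and 0.887 CPM at P6 and 9.5, 11 and 9.93 CPM at P10 (log2 3.41 ± 0.33, adjusted p = 2.1e-08, GC-adjusted 1.46 ± 0.26, adjusted p = 1.5e-04), with the groups apart and P0 crypt at 5.36 ± 0.134 CPM. Rfng, a glycosyltransferase that acts on Notch receptors, rose by 3.73 ± 0.30, or 0.81 ± 0.18 with the adjustment. The fallen genes were Hey1, a repressor that Notch switches on, by 1.46 ± 0.63 and 2.27 ± 0.65, and Adam10, a protease that cuts Notch receptors, by 1.77 ± 0.25 and 0.33 ± 0.13. The Adam10 call was lost without any 1 library (adjusted p = 0.053 to 0.14) and the Hey1 call without any 1 other than P6 replicate 2 (0.055 to 0.17). Hes1 was at 179.5, 133 and 181 CPM at P6 and 223, 128 and 145 CPM at P10 (log2 0.01 ± 0.32, adjusted p = 0.98, GC-adjusted -0.44 ± 0.33, adjusted p = 0.32), with overlapping groups. Atoh1 was at 7.48, 9.75 and 7.48 CPM at P6 and 13.2, 18.5 and 17.3 CPM at P10 with no overlap, but its plain value of 0.99 ± 0.34 became -0.01 ± 0.33 with the adjustment. Against P0 crypt, with like GC content, Atoh1 was higher by 1.49 ± 0.35 (adjusted p = 0.0059). Gfi1, a repressor that acts below Atoh1, turned from 1.36 ± 0.41 to -1.05 ± 0.40.

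Ligands of the stem cell niche gave 2 risen and 1 fallen of 18 tested (median -0.03, GC-adjusted -0.17, and 0.53 in the plain fit with library size alone as scaling). Wnt3, the Wnt ligand that Paneth cells supply to stem cells, was at 5.14, 3.32 and 4.97 CPM at P6 and 19.7, 10.7 and 17.5 CPM at P10 (log2 1.83 ± 0.29, adjusted p = 1.0e-05, GC-adjusted 0.97 ± 0.27, adjusted p = 0.007). The groups did not overlap, and the P10 libraries were also above P0 crypt, at 3.69 ± 0.234 CPM (log2 2.11 ± 0.29, adjusted p = 7.9e-05). Pdgfa, a platelet-derived growth factor, rose by 1.24 ± 0.21, or 0.53 ± 0.21, a call lost without any 1 library other than P10 replicate 2 (adjusted p = 0.057 to 0.19), which left Wnt3 alone. Bmp2, a differentiation signal, fell from 20.5, 16 and 18.5 CPM at P6 to 8.64, 6.33 and 7.58 CPM at P10 (log2 -1.28 ± 0.30, adjusted p = 7.1e-04, GC-adjusted -2.12 ± 0.35, adjusted p = 7.4e-05).

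Of 27 stem cell genes tested, 6 rose and 2 fell, near the shares of 15.4% and 11.4% over all genes. The median was 0.51, or 0.32 with the GC adjustment, and 16 were higher and none lower against P0 crypt. Rgmb, a co-receptor for bone morphogenetic proteins, was at 27.1, 25 and 23.1 CPM at P6 and 70.8, 67.3 and 51.4 CPM at P10 (log2 1.33 ± 0.22, adjusted p = 1.8e-05, GC-adjusted 1.78 ± 0.20, adjusted p = 5.1e-07) and at 10.7 ± 0.498 CPM in P0 crypt. Smoc2, a matricellular protein of Lgr5-positive cells, rose by 0.99 ± 0.24, or 1.13 ± 0.25. Lgr4, a receptor for R-spondins, fell by 1.60 ± 0.29 in the plain fit and 0.91 ± 0.20 with the adjustment, and Bmi1, a Polycomb protein, by 2.31 ± 0.31 and 0.68 ± 0.18. Lgr5 itself was at 374, 319 and 299.9 CPM at P6 and 242, 251 and 279 CPM at P10 and passed in neither fit (log2 -0.36 ± 0.32, adjusted p = 0.32, GC-adjusted 0.64 ± 0.29, adjusted p = 0.084), although it was higher than in P0 crypt, at 72.7 ± 31.8 CPM, by 1.82 ± 0.33 (adjusted p = 9.9e-04). Olfm4, an abundant secreted glycoprotein of stem cells and their first progeny, was at 6929, 4638 and 3946 CPM at P6 and 4023, 5622 and 3971 CPM at P10, with overlapping groups. Its plain value was -0.19 ± 0.39 and its GC-adjusted value 1.23 ± 0.35 (adjusted p = 0.0075).

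Wnt target genes gave 5 risen and 1 fallen of 25 tested (median 1.36, GC-adjusted 0.30), and 16 higher and none lower against P0 crypt. This list shares members with the stem cell list, Lgr5 and Sox9 among them, and Ephb3, Ephb2 and Tnfrsf19 count as risen in both. The counts of the 2 lists, also those against P0, are thus not separate results. The count of 5 was 3 without P10 replicate 1. Ephb3, a receptor that positions Paneth cells at the crypt base, was at 1.62, 1.49 and 1.89 CPM at P6 and 48.8, 41.8 and 38.7 CPM at P10 (log2 4.69 ± 0.30, adjusted p = 3.4e-10, GC-adjusted 2.45 ± 0.21, adjusted p = 3.6e-08). All P10 libraries exceeded every P6 library, and P0 crypt at 7.51 ± 0.584 CPM (log2 2.52 ± 0.26, adjusted p = 4.8e-06). Its relative Ephb2 rose from 36.8, 36.2 and 37.3 CPM at P6 to 199, 198 and 178 CPM at P10 (log2 2.38 ± 0.22, adjusted p = 1.1e-08, GC-adjusted 0.72 ± 0.13, adjusted p = 1.8e-04). Nkd1, a feedback inhibitor of the pathway, rose by 3.30 ± 0.60, or 2.33 ± 0.57. Sox4, a transcription factor, fell by 0.98 ± 0.30 in the plain fit and 1.34 ± 0.34 with the adjustment, but with library size alone as scaling its plain value was -0.42 (adjusted p = 0.213). Sox9, which Paneth cells need, passed in neither fit (log2 -0.22 ± 0.20, adjusted p = 0.35, GC-adjusted -0.20 ± 0.21, adjusted p = 0.47).

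Of 50 cell cycle genes tested, 9 rose and 4 fell, near the shares of all genes (15.4% and 11.4%). The count of 4 was 2 without P6 replicate 1, P6 replicate 3 or P10 replicate 3. The median was -0.12 in the plain fit, 0.21 with the GC adjustment and 0.44 in the plain fit with library size alone as scaling. Mcm5, a subunit of the replicative helicase, was at 38.5, 33.8 and 40.6 CPM at P6 and 153, 177 and 148 CPM at P10 (log2 2.08 ± 0.22, adjusted p = 7.2e-08, GC-adjusted 1.41 ± 0.18, adjusted p = 3.7e-06). Another subunit, Mcm2, rose by 1.91 ± 0.16, or 1.30 ± 0.12 with the adjustment. The cyclins Ccna2 and Ccnb1 fell, by 0.84 ± 0.14 and 0.60 ± 0.14 with the adjustment and by more in the plain fit, while cyclin Ccnb2 rose by 0.94 ± 0.16, or 0.83 ± 0.14. Mki67, a marker of dividing cells, passed in neither fit (log2 -0.53 ± 0.24, adjusted p = 0.061, GC-adjusted 0.17 ± 0.20, adjusted p = 0.53). Mcm5, Mcm2 and Ccnb2 stood at 151 ± 15.6, 145 ± 17.2 and 95.7 ± 4.45 CPM in P0 crypt, and none of these 3 passed against P0.

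Ribosome biogenesis genes gave 12 risen and 3 fallen of 30 tested (median 0.72, GC-adjusted 0.32), and 1 higher against P0 crypt. Fbl, a methylase of ribosomal RNA, was at 2.96, 3.71 and 2.89 CPM at P6 and 19.6, 21.9 and 18.1 CPM at P10 (log2 2.64 ± 0.26, adjusted p = 2.7e-08, GC-adjusted 1.99 ± 0.24, adjusted p = 1.8e-06). Pes1 and Bop1, partners in one processing complex, rose by 1.43 ± 0.17 and 3.83 ± 0.28, or 1.22 ± 0.15 and 1.21 ± 0.14 with the adjustment. Gnl3, a nucleolar GTPase, fell by 1.29 ± 0.18 and 0.65 ± 0.17, and the count of 3 was 1 without P10 replicate 3.

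Of 35 mature enterocyte genes tested 7 fell and 2 rose (background 11.4% lower). The median was -0.30 in the plain fit, -0.60 with the GC adjustment and 0.27 in the plain fit with library size alone as scaling. Only 4 of 35 lay above the GC curve, and against P0 crypt 19 were lower and none higher. Fabp2, an intracellular fatty acid carrier, was at 1282, 1955 and 3183 CPM at P6 and 262, 321 and 449.6 CPM at P10, with no overlap (log2 -2.64 ± 0.38, adjusted p = 3.2e-06, GC-adjusted -1.55 ± 0.37, adjusted p = 0.0023). Fabp1 was at 191, 424 and 539 CPM at P6 and 84.1, 142 and 150.4 CPM at P10 (log2 -1.61 ± 0.44, adjusted p = 0.0026, GC-adjusted -1.29 ± 0.43, adjusted p = 0.024), a call lost without P6 replicate 3 or P10 replicate 1 (adjusted p = 0.11 to 0.12). The count of 7 rested on single libraries: it was 1 without P6 replicate 3, 2 without P10 replicate 1 and 3 without P10 replicate 2, and DESeq2 gave 11. Myo7b, a motor of microvilli, rose by 2.51 ± 0.25, or 0.82 ± 0.16, and the count of 2 was 1 without P6 replicate 2, P6 replicate 3, P10 replicate 1 or P10 replicate 3. The summed level of the list was 15560 to 19650 CPM at P6 and 9209 to 12370 CPM at P10, with the groups apart. With library size alone as scaling the sums overlapped, at 13470 to 17350 CPM and 12050 to 15380 CPM.

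Genes of lipid absorption gave 2 risen and 3 fallen of 24 tested (median 0.72, GC-adjusted -0.56), and 18 lower and none higher against P0 crypt. Scarb1, a lipoprotein receptor, was at 6.05, 4.3 and 4.93 CPM at P6 and 16.7, 26.1 and 17.9 CPM at P10 (log2 1.99 ± 0.35, adjusted p = 3.5e-05, GC-adjusted 2.15 ± 0.36, adjusted p = 8.7e-05), below P0 crypt at 42.2 ± 14.9 CPM. Lipe, a hormone-sensitive lipase, rose by 3.92 ± 0.40, or 2.06 ± 0.31. The fallen genes were Apob, the structural protein of chylomicrons, by 2.23 ± 0.38 and 1.08 ± 0.32, Mttp, which loads lipid onto it, by 1.63 ± 0.35 and 0.94 ± 0.31, and Acsl5, which activates fatty acids, by 1.43 ± 0.32 and 1.06 ± 0.31. Of these 3 only Apob passed without P6 replicate 3 and only Acsl5 without P10 replicate 1. Apoa4, the apolipoprotein of chylomicrons, was at 164, 388 and 654 CPM at P6 and 1320, 2198 and 2931 CPM at P10 with a plain value of 2.42 ± 0.57 and a GC-adjusted value of -0.00076 ± 0.48. Lct, the lactase of suckling, passed in neither fit (log2 0.47 ± 0.42, adjusted p = 0.32, GC-adjusted -0.41 ± 0.41, adjusted p = 0.46), and nor did Sis, the sucrase of the weaned gut (log2 -0.91 ± 0.41, adjusted p = 0.054, GC-adjusted 0.84 ± 0.45, adjusted p = 0.15). Of the suckling-type list 1 rose and 2 fell of 20 (median -0.15, GC-adjusted -0.14, and 0.405 in the plain fit with library size alone as scaling), and the fallen numbered 1 without P6 replicate 1, P6 replicate 2 or P10 replicate 2 and 0 without P10 replicate 1, and the risen 0 without P6 replicate 1, P6 replicate 3, P10 replicate 2 or P10 replicate 3. Of the adult-type list 2 rose and none fell of 13 (median -0.60, GC-adjusted 0.07), or 1 without P6 replicate 2 or P6 replicate 3. One of the risen was Khk, the fructose kinase, at 1.4, 1.83 and 3.82 CPM at P6 and 39, 33.5 and 34.1 CPM at P10 (log2 3.92 ± 0.38, adjusted p = 1.9e-08, GC-adjusted 0.89 ± 0.19, adjusted p = 7.6e-04), whose mean in P0 crypt was 35.9 ± 4.53 CPM.

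Genes of early-life growth and RNA binding gave 6 fallen and 1 risen of 19 tested (median -0.67, GC-adjusted -0.32), and 11 lower and 1 higher against P0 crypt. The count of 6 was 2 without P10 replicate 1, 2 without P10 replicate 2, 3 without P6 replicate 2 or P6 replicate 3, and 2 with library size alone as scaling. Plagl1, an imprinted zinc-finger factor, was at 84.8, 101 and 112 CPM at P6 and 10.4, 11.8 and 17.5 CPM at P10 (log2 -2.91 ± 0.46, adjusted p = 1.2e-05, GC-adjusted -2.24 ± 0.39, adjusted p = 1.7e-04). Hmga2, a chromatin protein of fetal tissue, was at 189.5, 188 and 166 CPM at P6 and 50.9, 48 and 46.5 CPM at P10 (log2 -1.90 ± 0.22, adjusted p = 1.9e-07, GC-adjusted -1.16 ± 0.20, adjusted p = 9.0e-05). Igf2, the fetal growth factor, was at 88.4, 106 and 152 CPM at P6 and 38.3, 23.3 and 81 CPM at P10 (log2 -1.28 ± 0.47, adjusted p = 0.02, GC-adjusted -3.12 ± 0.53, adjusted p = 1.2e-04), against a mean of 829 ± 538 CPM in P0 crypt. The curve at its GC content stood at 2.12, so the fall ran against the trend, and the call was lost without P6 replicate 3, P10 replicate 1 or P10 replicate 2 (adjusted p = 0.073 to 0.097), and with library size alone as scaling (-0.71, adjusted p = 0.179). H19, the noncoding RNA of the same locus, was called in the GC-adjusted fit alone (log2 -0.52 ± 0.70, adjusted p = 0.51, GC-adjusted -2.37 ± 0.75, adjusted p = 0.017). Igf1r, the receptor, was the member that rose, by 0.58 ± 0.17, or 0.66 ± 0.15.

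**Figure D4:**
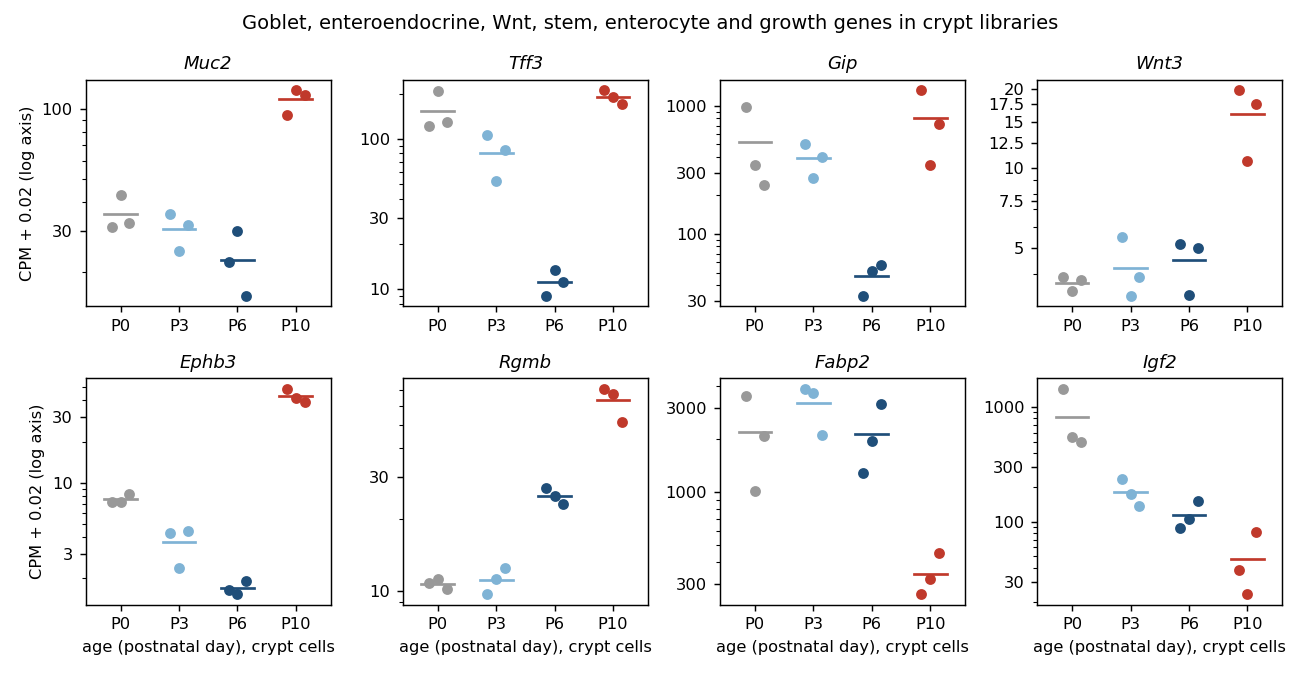
CPM (plus 0.02, log axis) of 8 genes of other lineages and pathways in crypt libraries at P0, P3, P6 and P10. Each point is 1 of 3 libraries and the bar their mean. Muc2, Wnt3, Ephb3 and Rgmb are highest at P10, Tff3 and Gip are lowest at P6, and Fabp2 and Igf2 are lowest at P10. The values are not adjusted for GC content.

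Basement membrane genes gave 9 risen and 2 fallen of 25 tested (median 1.29, GC-adjusted 0.01). The fallen, Nid1 and Itgb1, numbered 0 without P10 replicate 1 and 1 without any 1 other library except P10 replicate 3. The laminin chains Lamb2, Lama5 and Lamb3 were under 1 CPM in every P6 library. At P10 Lamb2 was at 16.9, 15 and 14.5 CPM. Lama5 was at 9.28, 8.41 and 6.98 CPM and Lamb3 at 11.5, 13.7 and 9.17 CPM. Their plain values were 5.52 ± 0.43, 5.62 ± 0.44 and 4.32 ± 0.41. The GC-adjusted values were 2.82 ± 0.35, 2.63 ± 0.40 and 2.52 ± 0.36, and each was also higher than in P0 crypt, by 1.43 ± 0.34, 0.94 ± 0.32 and 1.97 ± 0.36. Hspg2, the proteoglycan perlecan, was at 0.624, 0.383 and 1.27 CPM at P6 and 48.9, 45.8 and 34.5 CPM at P10 (log2 5.81 ± 0.62, adjusted p = 7.6e-08, GC-adjusted 2.49 ± 0.49, adjusted p = 4.2e-04). Cell junction genes gave 5 risen and 10 fallen of 27 (median -0.02, GC-adjusted -0.41, and 0.54 in the plain fit with library size alone as scaling). Cldn3, a claudin of tight junctions, was at 1.03, 1.36 and 1.74 CPM at P6 and 187, 178 and 172 CPM at P10 (log2 7.03 ± 0.51, adjusted p = 1.0e-09, GC-adjusted 3.00 ± 0.23, adjusted p = 9.1e-09), but at 194 ± 27.3 CPM in P0 crypt. Cldn23 fell by 0.82 ± 0.23 and 2.42 ± 0.36 where the curve at its GC content stood at 1.78, and its plain value with library size alone was -0.26 (adjusted p = 0.307).

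Intestinal transcription factors gave 3 risen and 6 fallen of 30 tested (median 0.63, GC-adjusted -0.43). Klf5, a factor of proliferating crypt cells, was at 85.3, 66.6 and 70.5 CPM at P6 and 252, 292 and 253 CPM at P10 (log2 1.84 ± 0.13, adjusted p = 7.3e-10, GC-adjusted 2.11 ± 0.12, adjusted p = 5.0e-10), and at 268 ± 7.47 CPM in P0 crypt. Gata6 and Foxa1, regulators of endodermal fate, fell by 0.59 ± 0.18 and 0.86 ± 0.24 in the plain fit and 2.36 ± 0.25 and 2.27 ± 0.31 with the adjustment. With library size alone as scaling their plain values were -0.04 and -0.30 and passed no threshold (adjusted p = 0.853 and 0.256).

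Antimicrobial genes of enterocytes gave 1 risen and 1 fallen of 24 tested (median 0.61, GC-adjusted 0.30). Pglyrp1, a peptidoglycan-binding protein, was at 7.7, 9.67 and 7.52 CPM at P6 and 79.8, 77.7 and 62.1 CPM at P10 (log2 3.14 ± 0.29, adjusted p = 9.1e-09, GC-adjusted 1.70 ± 0.21, adjusted p = 2.0e-06), and at 115 ± 18.9 CPM in P0 crypt. Il18, an epithelial cytokine, was at 13.3, 34.5 and 21.8 CPM at P6 and 4.42, 3.73 and 5.0 CPM at P10 (log2 -2.40 ± 0.36, adjusted p = 6.1e-06, GC-adjusted -1.82 ± 0.34, adjusted p = 2.9e-04). For the Reg3 lectins 1 P6 library stood apart. Reg3b was at 108, 2119 and 77.5 CPM at P6 and 118, 64 and 114 CPM at P10. Reg3g was at 35.4, 734 and 33.6 CPM at P6 and 65.7, 35.6 and 42.7 CPM at P10, and P6 replicate 2 stood far above the others for both genes. The plain value of Reg3b was -2.96 ± 1.23 (adjusted p = 0.041) and 0.09 without P6 replicate 2, and its GC-adjusted value -2.60 ± 1.24 (adjusted p = 0.1). Reg3g passed in neither fit (log2 -2.48 ± 1.12, adjusted p = 0.057, GC-adjusted -1.03 ± 1.08, adjusted p = 0.48).

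Of 27 genes of MHC class II and the interferon response 8 rose and 2 fell (median 0.25, GC-adjusted -0.22). The count of 2 was 1 without any 1 library other than P6 replicate 1. Cd74, the invariant chain, was at 0.156, 0.0852 and 0.231 CPM at P6 and 3.67, 2.96 and 6.29 CPM at P10 (log2 4.72 ± 0.71, adjusted p = 6.3e-06, GC-adjusted 2.46 ± 0.68, adjusted p = 0.0061). H2-Aa, a class II chain, was at 0.312, 0.298 and 0.386 CPM at P6 and 2.03, 0.795 and 3.24 CPM at P10 (log2 2.59 ± 0.75, adjusted p = 0.0044, GC-adjusted 3.15 ± 0.76, adjusted p = 0.0024). Psmb8, a subunit of the immunoproteasome, rose by 2.75 ± 0.34, or 1.93 ± 0.28, and Mx2, an interferon-induced GTPase, fell by 1.25 ± 0.32 and 1.63 ± 0.31 (plain -0.68, adjusted p = 0.0578, with library size alone). Markers of immune cells were counted at both ages: their summed level was 11.5 to 18.7 CPM at P6 and 17.3 to 22.7 CPM at P10, with overlap, or 9.93 to 16.5 and 21.1 to 29.1 CPM with library size alone as scaling, with 7 and 0 of 25 markers at 0, and 3 of 18 tested rose (median 1.49, GC-adjusted 0.80). Of these, Cd79a and Lyz2 were both lost without P6 replicate 1, P6 replicate 2 or P10 replicate 1, which left Ighm. Ighm, the heavy chain of B cells, had no count at P6 and 42 at P10, at least a log2 difference of 3.47 against the floor of 3 counts over the P6 group, without adjustment for GC content. Mesenchymal markers summed to 4.8 to 6.86 CPM at P6 and 10.8 to 29.8 CPM at P10, without overlap, with 3 and 1 of 19 at 0, and 2 of 15 tested rose (median 2.51, GC-adjusted 1.38), or 1, without Pdgfrb, when P6 replicate 1, P6 replicate 3 or P10 replicate 1 was left out. Endothelial and erythroid markers summed to 2.09 to 2.74 and 3.15 to 6.25 CPM, with 8 and 2 at 0, and 1 of 5 rose, Pecam1, or 0 without P6 replicate 2 or P10 replicate 1 and 2 without P10 replicate 3. Neuronal and glial markers summed to 17.3 to 24.9 and 16.6 to 23.6 CPM, or 15 to 20.8 and 21.8 to 30.3 CPM with library size alone, and none of 8 passed in both fits. The part of these cells in the class II and basement membrane results was not tested.

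Genes of protein folding in the endoplasmic reticulum gave 8 risen and 10 fallen of 50 tested (median 0.11, GC-adjusted -0.18). Syvn1, a ubiquitin ligase, rose by 2.96 ± 0.23, or 0.78 ± 0.14, and Pdia3, a disulfide isomerase, fell by 1.57 ± 0.17 and 1.05 ± 0.14. The remaining lists divided as follows, risen before fallen: 1 and 4 of 29 for mucin O-glycosylation, 7 and 7 of 30 for actomyosin, 3 and 4 of 31 for lysosome, 2 and 1 of 24 for fatty acid oxidation, 2 and 2 of 18 for circadian clock, 2 and 2 of 16 for glucocorticoid response, 1 and 0 of 12 for fetal epithelium, and 0 and 2 of 7 for mitochondrially encoded genes. Without P10 replicate 1 the fallen were 2 for mucin O-glycosylation and 1 for lysosome. The fallen of the glucocorticoid list were 1 without any 1 library other than P6 replicate 2, and those of fatty acid oxidation 2 without P6 replicate 1 or P10 replicate 3. The fallen mitochondrially encoded genes were 0 without P6 replicate 3 or P10 replicate 2, and 1 without P6 replicate 2, P10 replicate 1 or P10 replicate 3. The risen clock genes were 1 without P6 replicate 3 or P10 replicate 1. The GC-adjusted medians of these lists lay between -0.40 for the last list and 0.07 for fetal epithelium. The fetal epithelium gene was Krt7, a keratin, at 10.7, 7.84 and 9.6 CPM at P6 and 160.2, 148 and 108 CPM at P10 (log2 3.89 ± 0.41, adjusted p = 5.4e-08, GC-adjusted 3.12 ± 0.41, adjusted p = 9.0e-06).

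Outside the lists, the 12 genes with the largest rise in both fits were Gm6472, Rps19, Esrra, Rpl18, Gm9800, Rps26, Ndufb7, Mvp, Gm10260, Kcnn4, Gm26917 and St14. Ribosomal protein genes and predicted genes have near-identical copies, so those values are uncertain. Kcnn4, a calcium-activated potassium channel, was at 2.93, 3.07 and 4.39 CPM at P6 and 86.9, 82.1 and 71.4 CPM at P10 (log2 4.53 ± 0.43, adjusted p = 1.7e-08, GC-adjusted 4.03 ± 0.40, adjusted p = 2.4e-07), above P0 crypt at 15.2 ± 0.562 CPM (log2 2.40 ± 0.39, adjusted p = 3.7e-04). St14, the membrane protease matriptase, rose by 3.57 ± 0.28, or 3.93 ± 0.30, and Esrra, a nuclear receptor of energy metabolism, by 4.96 ± 0.42, or 4.79 ± 0.40. St14 and Esrra did not pass against P0 crypt, at -0.11 ± 0.25 and -0.73 ± 0.35. The 12 with the largest fall were Zxdb, Timm8a1, mt-Tl1, Tma7, H2afz, Prrx1, Gm16586, Egln3, Mbnl2, Rnf125, Gm20604 and Ldb3. Egln3, an oxygen-sensing hydroxylase, was at 42.2, 30.7 and 46.3 CPM at P6 and 8.64, 8.14 and 11.2 CPM at P10 (log2 -2.09 ± 0.39, adjusted p = 8.6e-05, GC-adjusted -2.55 ± 0.44, adjusted p = 1.6e-04), below P0 crypt at 143 ± 88.7 CPM (log2 -3.94 ± 0.42). Prrx1, a homeobox factor of mesenchyme, was at 17.4, 34.8 and 34.4 CPM at P6 and 1.31, 2.69 and 4.17 CPM at P10 (log2 -3.42 ± 0.49, adjusted p = 3.6e-06, GC-adjusted -2.19 ± 0.42, adjusted p = 3.4e-04), and at 24.1 ± 6.64 CPM in P0 crypt. Mbnl2, a splicing regulator, fell by 2.17 ± 0.25 and 2.07 ± 0.20 and did not pass against P0 (log2 -0.26 ± 0.24).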

How the data were processed

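Poly(A) RNA of sorted crypt and villus cells was measured in 23 libraries, and 6 of them carry the comparison. The deposited values are raw read counts for each gene symbol. Per the submitters' processing notes the tools were STAR, HTSeq and Trim Galore with the build mm9. Versions, the strand setting and how multiply aligned reads were counted are not given in the sources used here. Each library lists 47593 symbols, and its 5 summary lines (reads outside any gene among them, 12.5% to 13.5% at P6 and 9.62% to 12.5% at P10) were left out of totals and tests.

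Counts of all 23 libraries were fitted with edgeR 4.0.16 in R 4.3.3: low counts filtered (minimum count 10, minimum total 15), trimmed-mean scaling, a robust quasi-likelihood fit, 15 residual degrees of freedom, and Benjamini-Hochberg adjustment over 16535 genes, two-sided at 0.05. The GC-adjusted fit adds an offset for each library from natural splines of 5 degrees of freedom on GC content and log transcript length, estimated on genes with a mean log2 CPM above 1. GC content was known for 98.75% of tested genes. The prior count of log2 CPM was 2. The script was tested on simulated data. Replicates differed by more than sampling noise. Precision is limited by 3 libraries a group, and bounds against a count of 0 cover counting error only. Such bounds, and the ratio given for Defa-ps7, are not adjusted for GC content.

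From each list the text names up to 5 members per direction called in both fits with the largest values, and up to 3 others of the highest level. Outside the lists it names the 12 largest changes per direction among genes whose groups do not overlap and whose mean log2 CPM is 3 or more. A set of marker genes is named whatever their values, and defensins and Reg3 genes are given as families. The members and lists were chosen with earlier results of these data known. Alternatives were other scalings and filters, DESeq2 1.42.0, limma-voom (limma 3.58.1), a replicate block, the 6 libraries alone, and each library left out. The same alternatives in the GC-adjusted fit and in both fits, those for P10 against P0, and an offset trend on all genes were added after seeing the data.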

Additional observations from a re-analysis of the deposited data

How the results depend on the processing

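Leaving out 1 library gave 2176 to 2363 genes risen and 1387 to 1629 fallen in both fits, and 11 to 14 risen Paneth, 8 to 12 goblet and 5 to 6 stem cell genes. In the plain fit, 6154 higher calls became 3429 and 5315 lower calls 3394 with the GC and length offset. Library size alone gave 3354 lower calls, moved the median of all genes from 0.12 to 0.68 and the share of calls that were higher from 53.7% to 70.3%, or from 50.3% to 50.8% with the offset. P10 against P0 gave 1861 higher calls with the offset, and 615 to 1049 higher and 830 to 1512 lower calls without 1 library.

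Among the lists, called in both fits, 1 goblet gene was lower with only the 6 libraries compared and 1 with the offset trend on all genes. Higher hormone genes numbered 1 without the filter, 1 by limma-voom and 1 to 3 without 1 library, enteroendocrine granule genes 3 to 7, and Wnt target genes 3 to 6. The lower Wnt target gene became 0 with library size alone and 2 with only the 6 libraries. Mature enterocyte genes numbered 1 higher and 4 lower without the filter, 4 higher with only the 6 libraries, 11 lower by DESeq2, and 1 to 2 higher and 1 to 8 lower without 1 library. Lower early-growth genes numbered 2 with library size alone, 2 without the filter and 2 to 5 without 1 library. The cause of these differences was not tested.

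The replicate numbers share only a number: same-numbered P6 and P10 libraries had correlations of -0.0197, 0.0196 and -0.0642. With the replicate block the counts were 6111 higher and 5285 lower, with the block and the offset 3385 and 3328, in both fits 2510 and 1837, and against P0 1105 and 1448.

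Among named genes past the threshold in the plain fit or the alternative, signs turned for Fgfr3 (-0.47 with the offset, -0.46 with block and offset), Atoh1 (-0.0095 and -0.026), Gfi1 (-1.05 and -1.07), Olfm4 (1.23 and 1.25), Apoa4 (-0.00076 with the offset), Epcam (0.37 with library size alone, against -1.09 with the offset and with block and offset), Gmnn (0.11) and Cdh1 (0.54). Cd44, Dclk1, Gcg, Hes1, Lct, Lgr5, Mki67, Nts, Rfx6 and Sis, past the threshold in neither fit, also had opposite signs without and with the offset. With library size alone Gcg, Nts, Cpe, Rfx6, Dclk1, Olfm4, Lgr5, Sox9, Mki67 and H19 turned from below to above 0, past the threshold under neither scaling. Reg3b ranged from -3.50 to 0.093 without 1 library, the latter without P6 crypt replicate 2. Of 147 named genes called in both fits, 103 kept that call in every leave-out and 44 lost it in at least 1. The difference between crypt and villus changes gave 0 calls in every setting, with 125 to 1798 unadjusted p-values under 0.05. Where 1 P6 villus library was left out, the lone library is assumed to vary like the other groups.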
